A study of Mus musculus with 58 samples.

Results

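The enzymes that write, maintain and remove DNA methylation were followed in RNA sequencing of mouse CD4+ T cells. The set was given by name and holds 7 genes: the methyltransferases Dnmt1, Dnmt3a and Dnmt3b, the maintenance factor Uhrf1, and the dioxygenases Tet1, Tet2 and Tet3. All 7 were found among the 24028 genes counted, and all 7 passed the filter on low counts in both the full table (13709 genes tested) and the intron table (12366 genes tested). The 58 libraries form 15 groups, 3 genotypes in 5 states. Wild-type cells (wt, here WT) carry no Cre per the labels. KO cells, CD4cre.miR-17~92 lox/lox or T1792 delta/delta, lost the microRNA cluster miR-17~92 through a Cre driven by Cd4. TG cells, CD4cre.Rosa26 loxSTOPlox CAG-miR-17~92Tg or T1792 tg/tg, gained extra miR-17~92 from a Cre-dependent transgene in Rosa26. Cre and the change in the cluster therefore cannot be told apart in either comparison with WT. Naive cells were taken by a commercial isolation kit from lymph nodes and spleens pooled over 10 male and female mice, whose ages are not given. Stimulated cells of each genotype spent 24 or 48 h on plate-bound anti-CD28 (0.2 µg/ml) with anti-CD3 at 0.25 µg/ml (the very weak stimulus) or 0.5 µg/ml (the weak stimulus), with 50 U/ml of IL-2. Every group has 4 libraries except KO naive and WT naive, which have 3. Since nothing in the labels says that replicates came from separate pools of mice, p-values measure the spread between these samples only.

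DNA methylation in mammals sits mostly on cytosines that precede a guanine. Dnmt3a and Dnmt3b place it on unmethylated DNA (de novo methylation), while Uhrf1 recognises the hemimethylated DNA left behind a replication fork and recruits Dnmt1, which copies the mark to the new strand (maintenance). Tet1, Tet2 and Tet3 oxidise 5-methylcytosine, a step towards its loss through dilution or base excision repair. In T cells, DNA methylation helps to keep cytokine and Foxp3 loci silent, and Dnmt3a and Tet2 are known to shape T helper cell fates.

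Sequences of the microRNAs, of their possible sites and of the promoters are described next. Their part in the differences reported below was not tested. The microRNAs of the cluster repress messages whose 3′ untranslated region (3′UTR) pairs with the seed, bases 2 to 8 of the mature microRNA. The 6 mature sequences below come from RefSeq (GRCm38.p6, chromosome 14, plus strand) and fall into 4 seed families. Capitals mark the seed.
mmu-miR-17-5p: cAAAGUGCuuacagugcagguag
mmu-miR-20a-5p: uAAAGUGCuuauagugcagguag
mmu-miR-18a-5p: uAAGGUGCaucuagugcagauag
mmu-miR-19a-3p: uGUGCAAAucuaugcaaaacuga
mmu-miR-19b-3p: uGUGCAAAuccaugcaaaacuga
mmu-miR-92a-3p: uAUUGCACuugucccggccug

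Perfect 7-base matches to these seeds were searched in the longest 3′UTR of each gene in GENCODE vM21 (same build). Dnmt1 and Uhrf1 held none. Dnmt3a and Tet3 held 3 each, Tet1 and Tet2 held 2 each, and Dnmt3b held 1. Of 12600 tested genes with a 3′UTR, 32.5% held at least 1 of the 4 sites, and the longer 3′UTRs of Dnmt3a (6696 bases), Tet1 (7962) and Tet3 (5669) compare with a median of 1125 bases. The match in Dnmt3b is shown because Dnmt3b was the member that differed between genotypes, with 1 match each of Dnmt3a and Tet2 for comparison. Capitals mark the bases complementary to the seed.
Dnmt3b, miR-18a-5p, chr2:153686961-153686982, plus strand: tttaagtcttcctgGCACCTTc
Dnmt3a, miR-17-5p/miR-20a-5p, chr12:3909535-3909556, plus strand: tgggccatgtgctcGCACTTTg
Tet2, miR-92a-3p, chr3:133464521-133464542, minus strand: gctggtggtgtgctGTGCAATa
The miR-18a-5p site occurs in 9.13% of the genes searched, that of miR-17-5p and miR-20a-5p in 13.9%, that of miR-92a-3p in 7.33% and that of the miR-19 pair in 12.6%. A match is a description of letters and does not show that a microRNA binds there.

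Promoters were scanned because Dnmt1 and Uhrf1 rose with genes of DNA replication. The windows run from 250 bases before to 50 after each RefSeq start, and 12 windows matched the 7 genes. An E2F-type motif, TTTNNCGC on either strand, lay in 1 of 3 Dnmt1 windows and in both Uhrf1 windows, and in no window of the other 5 genes. It was present in 5.2% of all 32544 promoter windows. The motif itself contains a CG. Its windows held 33 (Dnmt1) and 12 and 33 (Uhrf1) CG, against a median of 7 over all windows. The share among windows equally rich in CG was not computed. The stretches that hold the motif follow in the orientation of the gene, with the match in capitals (2 overlapping matches in the first).
Dnmt1, chr9:20952825-20952850, minus strand, exonic untranslated sequence: ttccgcgcGCGCGAAAAAgccggggt
Dnmt1, chr9:20952574-20952599, minus strand, exonic untranslated sequence: ggggcagcgTTTGGCGCgggctgtgc
Uhrf1, chr17:56303272-56303297, plus strand, upstream of the gene: cccacttgcTTTCTCGCttcccgcca
Uhrf1, chr17:56304119-56304144, plus strand, within a transcript outside its exons: cgagtcgggTTTCGCGCgcccaggcg
The GC box GGGCGG was present in at least 1 window of each of the 7 genes and in 35.9% of all windows. The E box CACGTG, present in 7.17% of all windows, was found in 1 Dnmt3a window.

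Library totals ran from 19.2 to 20.8 M counts in the full table and from 2.74 to 9.11 M in the intron table. The intronic share of counts was 22.6 to 30.7% in naive libraries and 12.4 to 18.4% in stimulated ones. The hairpin Mir17 summed to 57 counts in 16 stimulated WT libraries, 2 in KO and 140 in TG, in the order of the labels, while the host transcript Mir17hg summed to 12340, 37651 and 13819 counts. In naive cells Mir17 summed to 10 counts in 3 WT libraries, 3 counts in 3 KO libraries and 542 counts in 4 TG libraries. The excess of TG over WT was thus larger in naive than in stimulated cells. All 8 CD4 T cell markers were detected in every group, with Cd4 between 415 and 1649 CPM (counts scaled to a common library total) and Cd3e between 149 and 540 CPM. Markers of B, myeloid, erythroid and CD8 cells were higher in naive than in stimulated WT libraries, while in KO the naive myeloid sums (137 to 244 CPM) overlapped those at 48 h (20.8 to 216 and 37 to 182 CPM). In WT, the summed level of 8 B cell markers was 219 to 418 CPM in naive cells against 16.2 to 62.2 CPM after stimulation, and that of 4 erythroid markers 54 to 177 CPM against 0.102 to 3.9 CPM. The sum of 11 myeloid markers was 162 to 369 CPM against 14 to 113 CPM, that of 2 CD8 markers 35.2 to 52.7 CPM against 9.45 to 24.3 CPM. For 6 NK cell markers the sums were 64.8 to 94.7 CPM against 18.8 to 132 CPM, and for 5 regulatory T cell markers 177 to 195 CPM against 717 to 1451 CPM. No marker of these lists was at 0 in the naive WT group. Their part in the changes from naive to stimulated cells was not tested. In bulk samples, fewer cells of a type and less RNA per cell cannot be told apart.

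**Figure D1:**
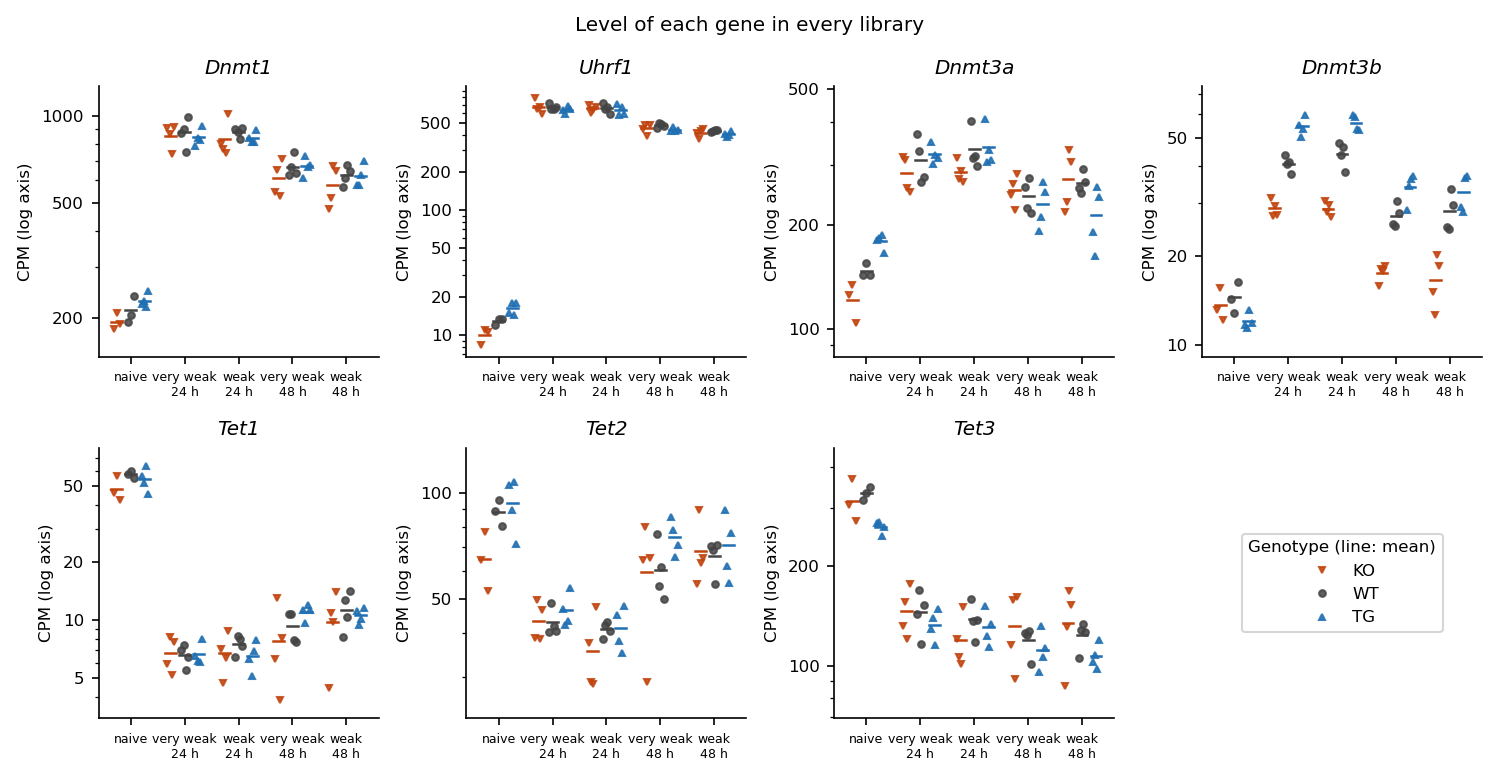
Level of each of the 7 genes in every library, in CPM (log axis), by state and genotype. Triangles and circles are libraries and short lines are group means. Dnmt1 and Uhrf1 lie higher after stimulation and Tet1 and Tet3 lower in every genotype, Tet2 dips at 24 h, and the genotypes separate for Dnmt3b at 24 h.

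Levels between genes were compared per kilobase of the deposited gene length. In naive WT cells (n = 3), Dnmt1 was highest at 30.3 ± 3.21 (SD) CPM per kb, followed by Tet3 at 27.9 ± 1.37 and Dnmt3a at 13.1 ± 0.655. Tet2 stood at 8.14 ± 0.691, Tet1 at 4.02 ± 0.162, Uhrf1 at 3.54 ± 0.223 and Dnmt3b at 3.34 ± 0.403 CPM per kb. Dnmt1 and Tet3 overlapped in that order, as did Uhrf1 and Dnmt3b, and the other neighbours did not. After 24 h of weak stimulus (WT, n = 4) the order was different, with Uhrf1 at 180 ± 15.5 and Dnmt1 at 126 ± 4.59 CPM per kb in front. Dnmt3a followed at 29.6 ± 4.23, then Tet3 at 11.6 ± 1.42 and Dnmt3b at 10.2 ± 1, which overlapped, then Tet2 at 3.79 ± 0.184 and Tet1 at 0.522 ± 0.0567.

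What stimulation did to each gene was asked by setting WT cells of each stimulated state against naive ones. The 4 methylation genes (Dnmt1, Uhrf1, Dnmt3a, Dnmt3b) rose in all 4 states and the Tet genes fell, except Tet2 under the weak stimulus at 48 h. That makes 27 of 28 tests called, 16 higher and 11 lower, at a Benjamini-Hochberg adjusted p under 0.05 in edgeR's quasi-likelihood test. Of all genes tested, 76.3% (very weak, 24 h), 77.4% (weak, 24 h), 77.7% (very weak, 48 h) and 78.2% (weak, 48 h) were called, so a call by itself is the common case here. Naive and stimulated WT libraries did not overlap for 77.2%, 77.7%, 74.8% and 75.9% of all genes in the same 4 states, so a lack of overlap is common too. The size and direction carry the information, and the median log2 change of all genes lay between -0.09 and 0.02.

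Uhrf1, the reader of hemimethylated DNA, had the largest change of the 7. Its level was 12, 13.4 and 13.4 CPM in the naive WT libraries. Under the weak stimulus it was 724, 650, 668 and 586 CPM at 24 h and 421, 430, 435 and 436 CPM at 48 h. The naive and stimulated libraries did not overlap. The log2 change was 5.69 ± 0.119 (SE) and 5.67 ± 0.119 at 24 h (very weak and weak) and 5.21 ± 0.116 and 5.06 ± 0.115 at 48 h, with adjusted p of at most 4.50e-37 (edgeR). Dnmt1, the maintenance methyltransferase, started from 194, 205 and 237 CPM in naive WT cells. It reached 900.5, 878, 835.5 and 907 CPM after 24 h of weak stimulus. Its log2 change was 2.06 ± 0.118 and 2.05 ± 0.118 at 24 h, and 1.66 ± 0.116 and 1.56 ± 0.116 at 48 h.

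Dnmt3a and Dnmt3b, the de novo enzymes, rose less. Dnmt3a was 143.1, 156 and 143.2 CPM in naive WT cells and 403.5, 315, 319 and 297 CPM after 24 h of weak stimulus. Replicate 1 was the highest of those 4, and no naive library overlapped them. Its log2 change ran from 0.73 ± 0.142 (very weak, 48 h) to 1.18 ± 0.144 (weak, 24 h). For Dnmt3b the naive WT libraries read 14.3, 12.8 and 16.3 CPM, against 48.1, 43.8, 46.6 and 38.2 CPM after 24 h of weak stimulus. By 48 h of weak stimulus Dnmt3b stood at 25, 24.6, 33.7 and 29.7 CPM, between the naive and the 24 h libraries. Its log2 change was 1.499 ± 0.126 and 1.61 ± 0.127 at 24 h, and 0.91 ± 0.125 and 0.96 ± 0.125 at 48 h.

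Tet1 had the largest fall. It was 57.8, 60.1 and 55.4 CPM in naive WT cells and 6.44, 8.26, 8 and 7.32 CPM after 24 h of weak stimulus. At 48 h under the same stimulus the libraries read 8.19, 12.7, 10.4 and 14.1 CPM, still far below every naive library. Its log2 change was -3.13 ± 0.249 and -2.94 ± 0.247 at 24 h, and -2.63 ± 0.243 and -2.34 ± 0.24 at 48 h. Tet3, the most abundant Tet per length in naive cells, went from 317, 333 and 349 CPM to 160, 137, 118 and 137 CPM after 24 h of weak stimulus. Its log2 change was -1.19 ± 0.165 and -1.27 ± 0.165 at 24 h, and -1.48 ± 0.165 and -1.43 ± 0.165 at 48 h. Tet2 went from 88.5, 95.2 and 80.3 CPM to 38.4, 42, 42.9 and 40.4 CPM (weak, 24 h) and was back at 70.3, 68.7, 55.1 and 70.8 CPM by 48 h. The 48 h libraries all lay below the naive ones, yet the difference under the weak stimulus, -0.41 ± 0.197, was not called (edgeR adjusted p = 0.0545). DESeq2 called it (adjusted p = 0.0374), as did edgeR with DESeq2 size factors (0.0392), with only these 2 groups in the fit (0.00315) or without WT naive replicate 4 (0.0379).

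**Figure D2:**
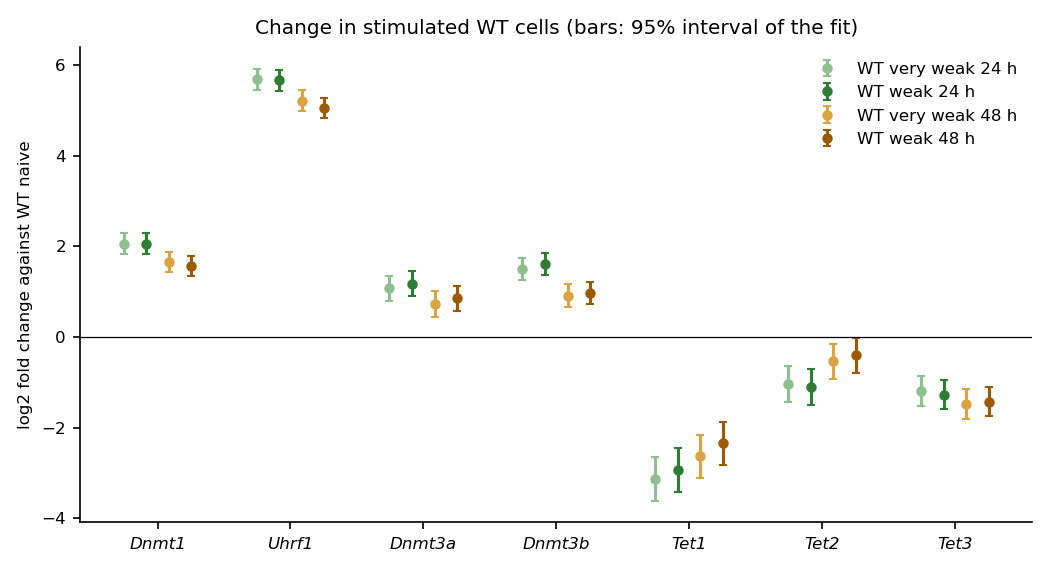
Log2 fold change of the 7 genes between naive WT cells and each stimulated state of WT cells, from edgeR, with 95% intervals of the fit. Uhrf1 lies between 5.06 and 5.69, Tet1 between -3.13 and -2.34, and Tet2 moves towards 0 at 48 h.

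The very weak stimulus gave levels close to those of the weak one. In WT libraries at 24 h, Uhrf1 read 717, 646.5, 643 and 663 CPM, Dnmt1 875, 906, 752.5 and 991 CPM, and Dnmt3a 369, 329, 267 and 276 CPM. At 48 h Uhrf1 read 457, 498, 490 and 474 CPM, Dnmt1 623, 668, 750 and 633 CPM, and Dnmt3a 258, 225, 275 and 217 CPM. These values lay above the naive WT libraries, as values of most genes did on one side or the other. Tet1 read 7.03, 7.45, 5.48 and 6.42 CPM at 24 h and 10.8, 10.8, 7.87 and 7.74 CPM at 48 h. Tet2 stood at 40.2, 48.6, 41.9 and 40.5 CPM at 24 h and at 76.3, 54.2, 61.4 and 50 CPM at 48 h, with replicate 1 the highest. For Tet3 the libraries read 143, 170, 116 and 153 CPM, then 126, 123, 128 and 101 CPM. The Tet values lay below the naive WT libraries, again without overlap, as for 77.2% (24 h) and 74.8% (48 h) of all genes in either direction.

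Between 24 and 48 h of stimulus in WT cells, the methylation genes fell back and Tet2 recovered. Of 14 tests, 11 were called, 8 lower and 3 higher, where 34.4% (very weak) and 41.4% (weak) of all genes were called. Dnmt3b fell by 0.59 ± 0.111 and 0.65 ± 0.111 on the log2 scale under the very weak and weak stimulus, Uhrf1 by 0.48 ± 0.0843 and 0.61 ± 0.0844, and Dnmt1 by 0.40 ± 0.102 and 0.49 ± 0.102. Tet2 rose by 0.50 ± 0.185 and 0.70 ± 0.186. Dnmt3a fell by 0.35 ± 0.129 and 0.33 ± 0.129, with adjusted p of 0.0316 and 0.0364 (edgeR). The change of Tet1 was 0.50 ± 0.233 under the very weak stimulus, not called (0.0922), and 0.60 ± 0.231 under the weak one, called at 0.0333. Tet3 gave -0.28 ± 0.154 and -0.16 ± 0.154, neither called. Several of these calls were lost when any of several libraries was left out, with the direction kept. The log2 change was then -0.32 to -0.25 and -0.33 to -0.22 for Dnmt3a (very weak and weak), 0.37 to 0.49 for Tet2 and 0.48 to 0.59 for Tet1. Dnmt3a under the very weak stimulus lost its call without replicate 1 or 2 of 24 h, or replicate 2 or 4 of 48 h (adjusted p 0.159, 0.0776, 0.0909 and 0.105). Under the weak stimulus it lost it without replicate 1 of 24 h, or replicate 1, 2 or 4 of 48 h (0.197, 0.0782, 0.0956 and 0.0611). Tet2 under the very weak stimulus lost it without replicate 1, 3 or 4 of 24 h (0.0784, 0.0632 and 0.0706) or replicate 1 or 3 of 48 h (0.152 and 0.0511). Tet1 under the weak stimulus lost it without replicate 1 or 4 of 24 h (0.0956 and 0.0616) or replicate 2 or 4 of 48 h (0.0856 and 0.126).

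The strength of the stimulus made no called difference. At 24 h and at 48 h, 0 of 14 tests of weak against very weak stimulus in WT cells were called by edgeR or DESeq2, and 0 had an unadjusted p under 0.05. Of all genes, 0% were called, with 280 (24 h) and 352 (48 h) at an unadjusted p under 0.05. These fits ignore the replicate number. With it as a block and WT stimulated libraries only, edgeR called 6 (24 h) and 10 (48 h) genes, none of them a member. For Dnmt3b the 95% interval of the log2 difference at 24 h was -0.11 to 0.33, and for Uhrf1 at 48 h it was -0.32 to 0.01.

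Other genes of the pathway were counted in 6 lists, beside a median log2 change of -0.09 over all genes (WT, weak stimulus, 24 h against naive), with 36.8% of all genes called higher and 40.7% lower. Of 72 listed genes tested, 44 were higher and 21 lower, 25 of the higher ones in the S phase list. Of 8 maintenance partners, 5 rose and 2 fell (median 1.95). Hells, the chromatin remodeller needed for methylation of repeats, rose from 8.71 ± 1.28 to 247 ± 27.6 CPM, and its partner Cdca7 from 14.6 ± 1.55 to 291 ± 15.6 CPM. Lig1, the ligase of Okazaki fragments and a binding partner of Uhrf1, rose from 27.2 ± 2.69 to 490 ± 9.87 CPM. Of 7 tested regulators of de novo methylation, 3 rose and 3 fell (median -0.02), with Ezh2, the H3K27 methyltransferase, up by 2.99 ± 0.0956, Trim28 by 1.53 ± 0.12 and Setdb1 by 0.58 ± 0.0697. Among 8 methyl-CpG readers 1 rose and 5 fell (median -0.63), among them Zbtb4 and Mbd1, which changed by -3.82 ± 0.207 and -0.78 ± 0.0788. Of 14 tested TET partners and base excision genes 5 rose and 7 fell (median -1.18), and those named next are among the 5 that rose. Tdg, the glycosylase that removes the oxidised bases made by Tet enzymes, rose from 15.2 ± 0.573 to 70.6 ± 1.81 CPM, and Neil3 and Apex1 rose by 3.87 ± 0.211 and 2.31 ± 0.165. Of 10 methyl donor and cofactor enzymes 5 rose and 4 fell (median 0.28), with Ahcy, which clears S-adenosylhomocysteine, up by 3.15 ± 0.11 and Mtrr by 1.28 ± 0.102. All 25 S phase genes rose in each of the 4 states (median 3.96 here), and those with the smallest adjusted p, Cdc45, Rrm1 and Mcm7, rose by 5.03 ± 0.1, 4.16 ± 0.121 and 3.16 ± 0.0935.

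Between genotypes the question is whether loss or gain of miR-17~92 moved these genes. Dnmt3b was lower in KO and higher in TG stimulated cells than in WT, and it was the member with a call in both comparisons. In naive cells the genotypes overlapped, at 12.8 to 16.3 CPM in WT, 12.1 to 15.6 CPM in KO and 11.4 to 13.1 CPM in TG. After 24 h of very weak stimulus, Dnmt3b read 43.6, 40.9, 41.5 and 37.7 CPM in WT, 31.4, 27.3, 29.4 and 27.5 CPM in KO, and 55.2, 50.2, 53.6 and 59.8 CPM in TG. After 24 h of weak stimulus the KO libraries read 30.7, 28, 29.6 and 27.1 CPM and the TG libraries 59.5, 58.7, 53.6 and 52.9 CPM, on either side of the WT values given above. At 24 h, then, the 3 genotypes did not overlap under either stimulus. At 48 h of very weak stimulus, WT read 25.5, 25.2, 30.6 and 27.8 CPM, KO 15.8, 18, 17.7 and 18.4 CPM, and TG 28.6, 34.3, 36.3 and 37.1 CPM. At 48 h of weak stimulus KO read 15, 12.6, 20.1 and 18.4 CPM and TG 29.2, 28, 36.4 and 37.1 CPM. KO stayed below WT in all of these libraries, while TG and WT overlapped at 48 h. Between libraries with the same replicate number, TG was above WT in 4 of 4 pairs and KO below WT in 4 of 4 pairs in each stimulated state. In naive cells TG was below WT in 3 of 3 pairs and KO in 2 of 3. How many of all genes show such pairs was not counted.

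**Figure D3:**
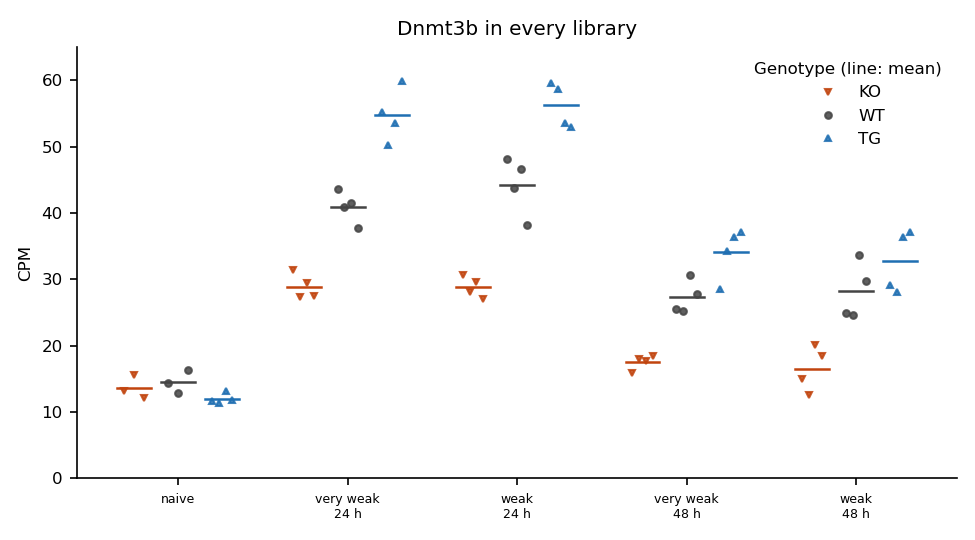
Dnmt3b level in every library (CPM, linear axis), by state and genotype, with lines at group means. KO libraries lie below WT libraries in all 4 stimulated states, TG libraries lie above WT at 24 h and overlap them at 48 h, and the 3 genotypes overlap in naive cells.

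Of 35 KO tests (7 genes in 5 states), 4 were called, all of them Dnmt3b lower in a stimulated state. The share of all genes called was 0.0365% (naive), 1.06% (very weak, 24 h), 1.4% (weak, 24 h), 4.63% (very weak, 48 h) and 5.04% (weak, 48 h), and in the stimulated states 0.452%, 0.627%, 1.58% and 1.99% were called lower. Every KO library lay below every WT library for 3.76%, 3.91%, 2.59% and 4.5% of all genes in these 4 states. With the replicate number as a block, more of the 13709 genes were called, 13 in naive cells and 350, 436, 1145 and 1193 in these states. For Dnmt3b the log2 difference was -0.50 ± 0.111 and -0.62 ± 0.111 at 24 h and -0.64 ± 0.113 and -0.77 ± 0.113 at 48 h (very weak, then weak), with edgeR adjusted p of 0.00924, 7.71e-04, 2.13e-04 and 1.23e-05. The first of these lost its call without KO replicate 4 (0.0520) and with replicates 1 and 2 or 3 and 4 alone (0.236 and 0.0677). The 48 h values lost theirs when only the KO and WT groups compared were fitted (0.0618 and 0.0729), with nearly the same differences, -0.64 and -0.77.

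Of 35 TG tests, 3 were called, with 7.83% (naive), 3.73% (very weak, 24 h), 4.81% (weak, 24 h), 13.3% (very weak, 48 h) and 9.96% (weak, 48 h) of all genes called. With the replicate number as a block, 1540, 919, 1162, 2572 and 1937 of 13709 genes were called in the same order of states. Every TG library lay above every WT library for 6.99% and 6.56% of all genes at 24 h (very weak and weak). Dnmt3b was higher by 0.42 ± 0.11 and by 0.32 ± 0.111 under the very weak stimulus at 24 and 48 h (adjusted p 0.0183 and 0.0450, edgeR). Under the weak stimulus it gave 0.35 ± 0.11 at 24 h (0.0546) and 0.21 ± 0.111 at 48 h (0.250), not called. The 24 h value under the weak stimulus was called with the replicate number as a block (0.0224), by DESeq2 (0.0223), in edgeR with DESeq2 size factors (0.0452) and with only the 2 groups fitted (0.0283). The 24 h call under the very weak stimulus was lost without TG replicate 1 or 4 or WT replicate 4 (0.0533, 0.0679 and 0.0834), and with replicates 1 and 2 alone (0.219). The 48 h call was lost without TG replicate 2, 3 or 4 (0.0902, 0.112 and 0.136) or WT replicate 1, 2 or 4 (0.117, 0.129 and 0.0782). It was also lost without the filter on low counts (0.0836), with only the 2 groups fitted (0.0829) and with replicates 1 and 2 or 3 and 4 alone (0.135 and 0.116).

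Counts of libraries that share a genotype and a replicate number were summed over the 4 stimulated states, which gave 4 sums a genotype and a single estimate. Dnmt3b averaged 23 ± 1.12 CPM in KO (23.1, 21.6, 24.3 and 23.1), 35.1 ± 2.14 CPM in WT (35.2, 33.7, 38.1 and 33.4) and 44.4 ± 1.73 CPM in TG (42.9, 43.3, 44.8 and 46.7). The 3 sets did not overlap. KO differed from WT by -0.61 ± 0.0606 on the log2 scale and TG from WT by 0.34 ± 0.0602, with adjusted p of 3.92e-04 and 0.00400 (edgeR). TG exceeded KO by 0.95 ± 0.0608 (7.92e-07). Dnmt3b was the 1 of 7 called in each of these comparisons, in which 5.93% (KO), 13.6% (TG) and 44.3% (TG against KO) of all genes were called. These shares, 805, 1840 and 6014 of 13567 genes, come from a fit that ignores the replicate number. With the replicate number as a block, 2630 (KO), 3972 (TG) and 7735 (TG against KO) genes were called. The order KO below WT below TG without overlap held for 414 of 13567 genes, or 3.05%, and the reverse order for 3.97%. Held to every one of the 4 stimulated states, the order met 14 genes (0.102%) and the reverse order 0.219%. Dnmt3b is not among the 14, since TG overlaps WT at 48 h.

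**Figure D4:**
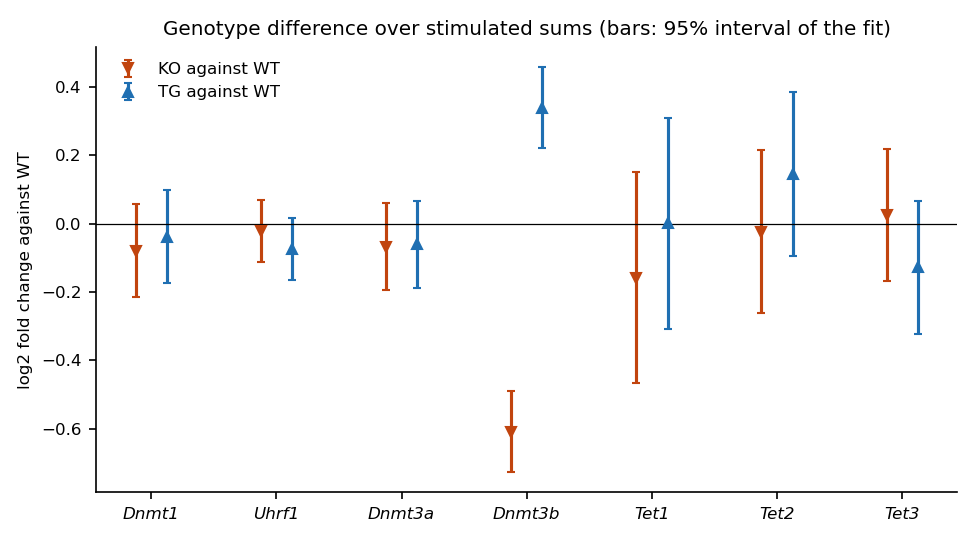
Log2 difference from WT in KO and TG cells over the sums of the 4 stimulated states (4 sums a genotype), with 95% intervals of the fit. The intervals of Dnmt3b lie on opposite sides of 0, and those of the other 6 genes include 0.

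The other 6 genes showed no called difference over the stimulated sums in either genotype. Their log2 differences ran from -0.16 to 0.02 in KO and from -0.13 to 0.15 in TG, with adjusted p of at least 0.539 and 0.311 and no unadjusted p under 0.05. DESeq2 called the same number of members, 1 in each. The intervals are narrow for some genes and wide for others. Uhrf1 in KO had a 95% interval of -0.11 to 0.07, and Tet1 one of -0.47 to 0.15. Tet2 and Tet3, with seed matches in their 3′UTR, averaged 51.9 ± 9.54 and 134 ± 21.7 CPM in KO sums, 52.8 ± 2.9 and 132 ± 6.77 CPM in WT sums, and 58.3 ± 7.21 and 120.5 ± 9.16 CPM in TG sums. Tet1 averaged 7.81 ± 1.94 CPM in KO, 8.72 ± 0.874 CPM in WT and 8.72 ± 0.862 CPM in TG. For all 3 Tet genes the KO sums were more scattered than the WT sums. Dnmt3a, with 3 seed matches, averaged 275 ± 3.53 CPM in KO, 288 ± 23.1 CPM in WT and 276 ± 19.9 CPM in TG. For the maintenance genes the means were, in Dnmt1, 723 ± 74.1, 764 ± 25.2 and 744 ± 41 CPM and, in Uhrf1, 549.6 ± 24.5, 558 ± 14.1 and 530 ± 17.3 CPM in KO, WT and TG.

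In naive cells Uhrf1 was the member that differed. Its level was 8.34, 10.9 and 10.5 CPM in KO, 12, 13.4 and 13.4 CPM in WT and 14.9, 18, 14.6 and 18.1 CPM in TG, with no overlap between genotypes. TG exceeded WT by 0.34 ± 0.0991 (edgeR adjusted p = 0.0237), while the KO value of -0.38 ± 0.108 was not called (0.353). The TG call was lost when only these 2 groups were fitted (0.111), without TG replicate 2 or 4 (0.0961 and 0.1003), and without WT replicate 1, 2 or 4 (0.135, 0.0557 and 0.0613). In stimulated cells no Uhrf1 difference between TG and WT was called. Dnmt3a lay in the same order in naive cells without overlap, 126, 134 and 104 CPM in KO, 143.1, 156 and 143.2 CPM in WT and 182, 184, 187.5 and 167 CPM in TG, but neither difference was called (adjusted p 0.996 and 0.217). Tet3 was lower in every TG naive library (246 to 273 CPM) than in every WT one (317 to 349 CPM), at -0.34 ± 0.165, not called (0.215, or 0.0309 with only these 2 groups fitted). Tet2 was lower in every KO naive library (52.6 to 77.5 CPM) than in WT, at -0.44 ± 0.212, not called (0.996). Of all genes, 4.56% lay below WT in every KO naive library, 11.6% below and 11.1% above in every TG naive library.

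Whether a genotype difference changed between naive and stimulated cells was tested directly, as the mean difference over the 4 stimulated states minus that in naive cells. The fit behind these tests and those of 48 h minus 24 h counted same-numbered stimulated libraries of a genotype as separate samples. Such libraries deviated together between the stimulus strengths in WT, so these p-values may be too small. Of 14 tests 2 were called, both for TG, where 6.18% of all genes were called. Dnmt3b gave 0.60 ± 0.136 (edgeR adjusted p = 0.00439). Part of this value is the naive difference of TG from WT, -0.27 and not called, against 0.21 to 0.42 in the 4 stimulated states. For Uhrf1 the value was -0.42 ± 0.108 (0.0116), a call lost without TG naive replicate 2 or 4 or WT naive replicate 1 (0.0535, 0.0550 and 0.0836). In KO, with 0.168% of all genes called, Dnmt3b gave -0.54 ± 0.145 and was not called (0.0917). It was called with the replicate number as a block (0.0392) and by DESeq2 (0.0481), which called 88 and 70 genes against 23 as reported. Differences at 48 h minus those at 24 h gave 0 calls in 14 tests by edgeR and by DESeq2, and 0 at an unadjusted p under 0.05, where 0.781% (KO) and 1.85% (TG) of all genes were called.

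Of 71 related genes tested over the same sums, 8 were called in KO (11.3%, where 5.93% of all genes were) and 17 in TG (23.9%, where 13.6% were). For KO against WT, the lists held 1 higher of 8 maintenance partners (Cdca7l, 0.28 ± 0.0614), 1 higher of 8 readers (Zbtb4, 1.05 ± 0.168), none of 7 de novo regulators or 10 donor enzymes, and 2 higher and 2 lower of 25 S phase genes. Of 13 tested TET partners, Neil3 was higher (0.46 ± 0.0995, log2) and Tdg lower (-0.32 ± 0.0658). For TG against WT, 3 maintenance partners were lower (Cdca7l, Zbtb24 and Lig1, -0.29 ± 0.0614, -0.24 ± 0.0615 and -0.19 ± 0.0514), Ezh2 was higher by 0.25 ± 0.0559, and Zbtb4 and Mbd4 were lower (-0.73 ± 0.169 and -0.29 ± 0.0799). Among the donor enzymes Idh2 and Idh1 were higher and Mat2b lower, among TET partners Cxxc5 was higher and Neil3 lower, and 2 S phase genes were higher and 4 lower. The median over each of the 6 lists lay between -0.09 and 0.15 in KO and between -0.11 and 0.09 in TG, against medians of 0.01 and -0.01 over all genes.

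At 24 h some marker sums stood in the genotype order of Dnmt3b. The 5 regulatory T cell markers summed to 654.5 to 751.5 CPM in KO, 824 to 974 CPM in WT and 1133 to 1301 CPM in TG after 24 h of very weak stimulus. After 24 h of weak stimulus they gave 622 to 695 CPM, 717 to 920 CPM and 985 to 1196 CPM. In both states the genotypes did not overlap, and they stood in the same order as for Dnmt3b. At 48 h KO and WT overlapped (938 to 1261 CPM against 1138 to 1423 CPM under the very weak stimulus). The same markers were also ordered without overlap in naive cells, 133 to 151 CPM in KO, 177 to 195 CPM in WT and 287 to 309 CPM in TG, where Dnmt3b overlapped. Over the stimulated sums 1 of these 5 markers was called higher in KO, and 2 higher and 1 lower in TG. The order of the marker sum therefore does not stand for each marker. NK cell markers at 24 h of weak stimulus gave 7.72 to 17.7 CPM in KO, 21.8 to 27.5 CPM in WT and 24.9 to 44.4 CPM in TG, where TG and WT overlapped. At 24 h of very weak stimulus NK cell markers gave 7.37 to 17.9 CPM in KO, 18.8 to 21.5 CPM in WT and 35.2 to 62.7 CPM in TG. The 8 CD4 T cell markers gave 3815 to 4502, 3640 to 4035 and 3095 to 3402 CPM there. Myeloid markers were at 8.92 to 14.1, 14.7 to 19.9 and 13.8 to 22.4 CPM there, with 2, 2 and 1 of 11 at 0. At 48 h of very weak stimulus they gave 20.8 to 216 CPM in KO, 23.4 to 95.5 CPM in WT and 7.63 to 14.1 CPM in TG, and at 48 h of weak stimulus 37 to 182, 29.9 to 113 and 7.25 to 14.7 CPM, TG below WT without overlap in both. NK cell markers overlapped there, at 40.4 to 118, 98.4 to 120 and 84.8 to 128.5 CPM under the very weak stimulus. None of the regulatory T, NK or CD4 T cell markers was at 0 in any group. A marker sum does not count cells, and the part of these cells in the Dnmt3b difference was not tested.

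Intronic reads come mostly from unspliced RNA and were used as a second readout of the same libraries. The comparison of naive with stimulated cells depends on how introns are scaled. Scaled by intron totals, changes are relative to the typical intron, whereas scaling by full totals shifted the median of all genes by -1.23 to -1.54 log2. Calls that keep their direction under both are given first. Intronic Uhrf1 rose by 6.88 ± 0.282 and 6.79 ± 0.281 at 24 h and by 6.20 ± 0.275 and 6.02 ± 0.273 at 48 h (very weak, then weak, intron totals), and by 4.62 to 5.66 with full totals. Intronic Tet1 changed by -1.81 to -1.17 and intronic Tet3 by -1.40 to -0.60 over the 4 states, and more so with full totals (-3.34 to -2.63 and -2.97 to -1.90). Full totals lower the intron change of every gene, so the falls of Tet1 and Tet3 were bound to keep their direction. The rise of Uhrf1 was not. Of 28 intron tests 20 were called, where 55.3% (very weak, 24 h), 60.7% (weak, 24 h), 57.2% (very weak, 48 h) and 58% (weak, 48 h) of all genes were called. Intronic Tet3 lost its call at 24 h without replicate 2, at -0.69 (adjusted p 0.109, very weak) and -0.34 (0.438, weak), and under the weak stimulus also without replicate 3, at -0.46 (0.0970). Intronic Dnmt1 was higher by 1.86 to 1.94 at 24 h and by 1.253 to 1.28 at 48 h, but at 48 h its direction turned with full totals, and those of Dnmt3a and Dnmt3b turned in all 4 states. Under intron totals, Dnmt3b introns lost their call at 24 h of very weak stimulus without replicate 1, 2 or 4 (0.0928, 0.0766 and 0.137), and Dnmt3a introns lost theirs at 48 h without replicate 1 or 4 (0.246 and 0.358, very weak, and 0.0950 and 0.307, weak).

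The exon change minus the intron change asks whether spliced RNA moved more than unspliced RNA. Its fit, and that of the genotype differences below, entered the exon and intron counts of a library as separate samples. The p-values and intervals therefore leave out the pairing within a library. Dnmt3b was higher in all 4 states, by 0.99 ± 0.189 and 1.02 ± 0.189 at 24 h and 0.74 ± 0.192 and 0.89 ± 0.192 at 48 h, with edgeR adjusted p of 1.40e-05, 5.88e-06, 0.00126 and 1.05e-04. It stayed called with full totals, at 2.25 to 2.35, where the median of all genes was 1.18 to 1.53. That scaling raises the value of every gene, so a higher one was bound to stay higher. In the libraries, exonic Dnmt3b went from 12.8 to 16.3 CPM in naive WT cells to 38.2 to 48.1 CPM under the weak stimulus at 24 h, whereas intronic Dnmt3b went from 19.7 to 22.6 to 25.3 to 36.3 CPM of intron totals. Uhrf1 was lower (-1.23 to -1.0005), but this direction turned with full totals (0.02 to 0.53), as did that of Tet2 (-1.05 to -0.66, against 0.25 to 0.91). Tet1 was called lower in 3 of 4 states (-1.76 ± 0.447, -1.45 ± 0.45 and, weak at 48 h, -1.18 ± 0.441), and no call was left with full totals. The call of Tet1 at 48 h was lost without replicate 2 (0.256), and that of Dnmt3a in its 1 called state (weak, 24 h) without replicate 1, 2 or 3 (0.155, 0.227 and 0.0715). Calls of Tet2 were lost without replicate 1 or 4 (very weak, 24 h, 0.0924 and 0.0729), 2 or 4 (very weak, 48 h, 0.1103 and 0.228) and 1, 2 or 4 (weak, 48 h, 0.0832, 0.0632 and 0.191). In all, 16 of 28 tests were called, where 39.3%, 41.6%, 37.4% and 37.5% of all genes were called (in the order of states used for introns).

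**Figure D5:**
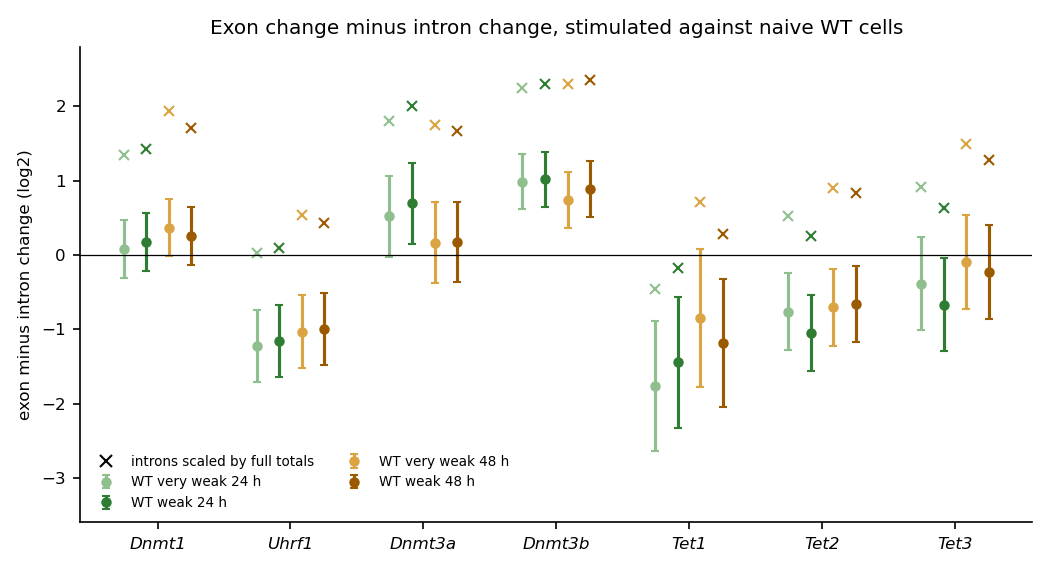
Exon change minus intron change (log2) of the 7 genes in WT cells, stimulated against naive, with introns scaled by intron totals (circles, with 95% intervals of the fit) and by full totals (crosses, no interval). The second scaling raises every gene. Dnmt3b lies above 0 under both scalings, while Uhrf1 and Tet2 lie below 0 under the first and above it under the second.

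For the genotype differences over the stimulated sums the scaling of introns moved the median exon minus intron difference of all genes by -0.01 in KO and 0.07 in TG. Intronic Dnmt3b differed by -0.39 ± 0.0999 in KO and by 0.25 ± 0.0989 in TG, the same directions as in the full table, but neither was called (adjusted p 0.233 and 0.268, edgeR). Of 14 intron tests 0 were called, 2 had an unadjusted p under 0.05, both of Dnmt3b, and 0.11% (KO) and 2.06% (TG) of all genes were called. Exon minus intron, Dnmt3b gave -0.22 ± 0.103 in KO and 0.10 ± 0.103 in TG. Of those 14 tests 0 were called by edgeR and 1 had an unadjusted p under 0.05 (Dnmt3b in KO), with 0.103% and 0.0686% of all genes called. The 95% intervals were -0.42 to -0.02 and -0.10 to 0.30.

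The pattern of each gene over the 15 group means (Pearson r of log2 CPM, given as a description, since groups share libraries' depth and the large step from naive to stimulated cells) placed Dnmt1 nearest to Rfc1 (0.997), a subunit of the clamp loader of replication, and Ccdc57 (0.996). Uhrf1 was nearest to Dtl (0.999) and Rfc5 (0.999), both with roles in S phase. Dnmt3b was nearest to Ap2a2 (0.988), Rae1 (0.984) and Fahd1 (0.982), and Dnmt3a to Stk19 (0.965), Zfp282 (0.965) and Rpusd1 (0.962). Tet1 was nearest to Itpkb (0.992), Polr3gl (0.99) and Nck1 (0.99). For Tet2 the nearest were Wdr78 (0.968), Chfr (0.965) and Pld2 (0.964), and for Tet3 they were Pcnx3 (0.995), Pkd1 (0.994) and Tnrc18 (0.994). Among the members, Dnmt1 and Uhrf1 were closest to each other (0.986 over 15 groups and 0.978 over the 12 stimulated groups). Tet1 and Tet3 ran together over all groups (0.898) but in opposite directions within the stimulated ones (-0.701), where Tet1 and Tet2 ran together (0.899). Dnmt3b was less alike to Dnmt1 and Dnmt3a within the stimulated groups (0.75 and 0.56) than over all groups (0.834 and 0.781).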

How the data were processed

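The authors deposited, per the file headers, a full and an intron table with whole-number counts of reads per gene and no normalization. Per the submitters' processing notes, the tools were STAR 2.5.2a, edgeR 3.24.3, R 3.5 and FastQC 0.11.5, on mm10. How reads were assigned to genes (program, annotation, strand) is not given in the sources used here. Intron counts exceeded full counts in 14.1% of values, so these reads are not part of the full table and none were subtracted. IDs were matched to RefSeq symbols (23968 of 24028), and gene lengths are the deposited ones.

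Counts of 58 libraries entered 1 fit in edgeR 4.0.16 (R 4.3.3) with TMM factors (0.939 to 1.06), filterByExpr, 1 coefficient per group, 43 residual degrees of freedom and the quasi-likelihood F test. A call is a Benjamini-Hochberg adjusted p under 0.05 over all genes tested. Levels are CPM with SD, and 95% intervals are 1.96 SE. Sums over the 4 stimulated states (12 sums, 13567 genes) and a joint exon and intron fit (11350 genes) used the same test. DESeq2 1.42.0 was an alternative, and scripts were tested on simulated counts.

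Replicate numbers pair the samples of the stimulated comparisons between genotypes, where every same-numbered pair deviated together with r above 0.1 (0.132 to 0.625). The same held for weak against very weak stimulus (0.268 to 0.631). Some pairs lay below 0.1 between times in WT (0.053 to 0.175), in naive cells (-0.049 to 0.391) and against naive cells (-0.039 to 0.137). Named genes are the members, up to 3 called genes per list by smallest adjusted p, and the 3 genes most alike to each member. Some genes that this rule names are not reported here. Members and lists were chosen with earlier results of these data known.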

Additional observations from a re-analysis of the deposited data

Results flagged for a closer look

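The difference of TG from WT cells changed between naive and stimulated states for 2 genes by a direct test (edgeR). Its fit took same-numbered stimulated libraries as separate samples, so its p-values may be too small. For Dnmt3b the stimulated difference exceeded the naive one by 0.60 on the log2 scale (0.5952 ± 0.136, adjusted p = 0.00439), and for Uhrf1 it lay below it (-0.42 ± 0.108, 0.0116). The naive Dnmt3b difference was itself -0.27 and not called, so the 0.60 is larger than the difference in stimulated cells.

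Of 112 groups of 4 values examined, 2 held a library far from the other 3, fewer than the 1 in 20 that chance gives. Tet2 in WT replicate 3 under the weak stimulus at 48 h was 55.1 CPM against 68.7 to 70.8 CPM in the others. Tet3 in WT replicate 4 under the very weak stimulus at 48 h was 101 CPM against 123 to 128 CPM.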

How the results depend on the processing

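Over 245 member results, 1197 alternative values (other scaling, filter, tool, replicate block, sample subsets) gave 1133 that kept their side of the threshold, 16 that lost and 24 that gained a call, and 24 that turned direction where one of the values was called. Of 2394 values with 1 library or replicate left out, 2333 kept their side, 56 lost and 5 gained a call, and 0 turned with a call. Among values uncalled under both, 35 and 92 changed sign. The 3 Dnmt3b calls over stimulated sums held under every alternative run. The number of KO calls by state was 4, and 2 with only the groups compared. TG calls by state were 3 of 35 tests. Fits of replicates 1 and 2 only, or 3 and 4 only, held the 28 stimulated tests. They did not retest the naive Uhrf1 call. With replicates 1 and 2 both Dnmt3b calls were lost. The 1 call there was Dnmt3a, lower in TG at 48 h of weak stimulus (-0.51, edgeR adjusted p 0.0396). That difference was uncalled as reported (-0.31, 0.123) and called without TG replicate 3 of that state (-0.42, 0.0427). With replicates 3 and 4 the 1 call was Dnmt3b at 24 h of very weak stimulus. The 2 calls of stimulated minus naive differences became 1 to 2 when a library was left out, and 3 with the replicate block. The block, DESeq2 and DESeq2 size factors each gave 4 TG calls by state, and the block changed no call on the stimulated sums. With WT stimulated libraries only, the block called Tet1 higher at 48 h under the very weak stimulus (0.0207).

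All 24 turns that involved a call came with introns scaled by full totals, whose construction shifts every gene (states in the order very weak 24 h, weak 24 h, very weak 48 h, weak 48 h). Intron changes became -0.73, -0.82, -1.03 and -0.82 (Dnmt3a), -0.75, -0.69, -1.39 and -1.39 (Dnmt3b), and at 48 h -0.28 and -0.15 (Dnmt1) and -1.45 and -1.24 (Tet2). Exon minus intron changes became 0.53, 0.25, 0.91 and 0.83 (Tet2) and 0.0246, 0.09, 0.53 and 0.44 (Uhrf1). For Tet3 they became 0.92, 0.63, 1.49 and 1.27, and for Tet1 at 48 h 0.71 and 0.28, where 0.63 and 0.71 are uncalled under both scalings. Depth limits Tet1 introns most, with 1558 counts in all libraries.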
